A study of Caenorhabditis elegans with 15 samples.

Results

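In whole *C. elegans* with a mutant subunit of complex I, 174 genes stood at least 1 log2 unit above wild type (wt) and were at least 0.5 log2 units lower once the *age-1* mutation was added. Among them were the 3 p38 kinase genes *pmk-1*, *pmk-2* and *pmk-3*, 12 collagens of the cuticle, other genes of the molting cycle, and 109 genes known only by a sequence name or an identifier. The *gas-1* libraries lay above all others in each of the 3 kinase genes and in none of the 12 collagens. All 174 genes were chosen by a rule on the measured values. A gene had to reach 1 FPKM (fragments per kilobase, a level scaled to transcript length and library size) in at least 5 of the 15 libraries, its strain mean of log2(FPKM + 0.1) had to be at least 1 higher in *gas-1* mutants than in wt, and in the double mutant with *age-1* it had to be at least 0.5 lower than in *gas-1* mutants. Genes of the large families named *col*, *clec*, *cyp*, *gst*, *ugt*, *ttr*, *nhr*, *msp* and *fbx* were left out. Of 20483 genes in the tables, 11648 passed the filter on low values, 239 met the numeric limits, and 174 remained after 65 family genes were left out. The members are thus 1.49% of the genes tested.

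The libraries came from 3 strains grown at 20 °C, with 5 biological replicates each. These were wt (N2), *gas-1(fc21)* mutants, and *age-1(hx546); gas-1(fc21)* mutants, called double mutants here, so that both mutant strains share the *gas-1* allele. An *age-1* single mutant was not analysed here, and the effect of *age-1* can be read only on the *gas-1* background. The labels give L4 larvae as the stage, whereas transcripts of mature oocytes and yolk were abundant in every library, with 27590 to 98840 FPKM for the yolk gene *vit-2*. In the paper, the one RNA protocol written out, for quantitative PCR, starts from young adults. Its sequencing methods point back to a protocol and name no stage. The stage of these animals was not tested. Both alleles are point mutations, and the *gas-1* transcript itself, at 115.03 ± 11.04 FPKM in wt, 219.5 ± 19.4 in *gas-1* mutants and 220.6 ± 13.3 in double mutants (SD, n = 5), does not check the labels. The values of a library summed to 658126 to 702623 FPKM. Read totals were not recovered from these values. In 4 libraries, wt replicate 3, *gas-1* replicate 2 and replicates 2 and 5 of double mutants, transcripts made in sperm were low and transcripts of embryos were high compared to the rest of the strain. Over 15 sperm genes, all measured, the summed level was 24.9, 30.2, 26.6 and 28.2 FPKM in these 4 libraries, and over all libraries it spanned 24.9 to 162.5 FPKM in wt, 30.2 to 54.02 in *gas-1* mutants and 26.6 to 79.4 in double mutants. Of these 15 genes, 10, 8 and 10 reached 1 FPKM in at least 1 library of wt, of *gas-1* mutants and of double mutants. The 11 embryo genes summed to 545, 485, 593 and 518 FPKM in the same 4 libraries, each the highest or among the highest pair of its strain. Where a named member fell short of the limit on the rise or the fall without these libraries, its value without them is given. Members that then fail only the filter on low values, which asks for 5 libraries, are not marked.

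The product of *gas-1* is a core subunit of respiratory complex I, where NADH enters the electron transport chain. The product of *age-1* is the catalytic subunit of the phosphoinositide 3-kinase that carries the insulin/IGF signal (IIS), and loss of its activity lets the transcription factor DAF-16 enter the nucleus. Some of the genes described here belong to programs known to respond to stress or stage in the nematode. The p38 kinase PMK-1 acts in a relay from TIR-1 through NSY-1 and SEK-1 and drives much of the transcription that follows infection of the intestine. The cuticle is an extracellular coat of cross-linked collagens secreted by the hypodermis, and it is rebuilt at each molt, so that collagen genes, hedgehog-related genes and matrix proteases are transcribed in pulses through each larval stage. In whole animals, fewer cells of a type and less RNA per cell cannot be told apart.

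**Figure D1:**
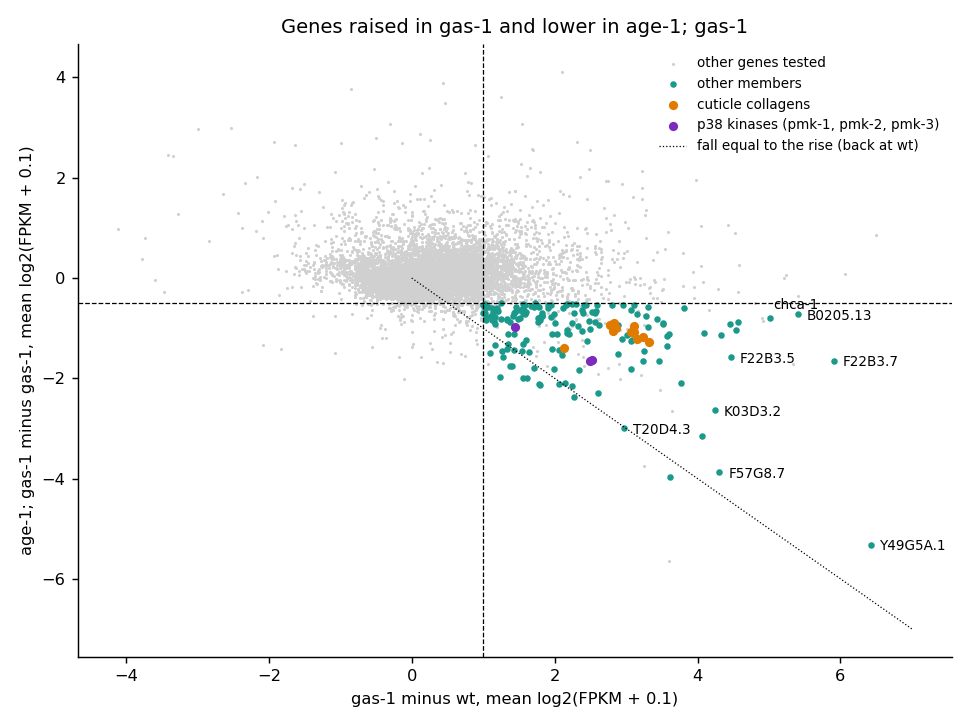
Each point is 1 of the 11648 genes tested, with its difference between *gas-1* and wt on the x axis and between double and *gas-1* mutants on the y axis, both on the log2 scale. Dashed lines mark the limits of 1 and -0.5, grey points past both limits belong to families that were left out, and members on the dotted line had a mean in double mutants equal to that in wt. Members spread from 1.00 to 6.43 on the x axis and from -5.32 to -0.51 on the y axis.

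As a description of the values that chose them, the members were a median of 2.11 log2 units higher in *gas-1* mutants than in wt (quartiles 1.52 and 2.95). They were a median of 0.90 log2 units lower in double than in *gas-1* mutants (quartiles -1.33 and -0.68). The median over all genes tested was 0.14 for *gas-1* minus wt and -0.02 for double minus *gas-1*. Most members were modestly expressed. Their median level was 0.974 FPKM in wt, 4.43 in *gas-1* mutants and 2.08 in double mutants, against 10.499, 12.294 and 12.606 FPKM over all genes tested. In *gas-1* mutants 34 members averaged under 2 FPKM, 92 averaged 2 to under 10 and 48 averaged at least 10. For 17 members no library of wt or double mutants reached 1 FPKM, and these genes passed the filter on low values through *gas-1* mutants alone. Among them were *F57G8.7*, *K03D3.2*, *F22B3.5*, *T20D4.3* and WBGene00020873, whose values below are description.

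With limma at a 5% false discovery rate (FDR), 172 of the 174 members passed as higher in *gas-1* mutants than in wt, where 44% of all genes tested did so. Of the members, 102 passed as lower in double than in *gas-1* mutants, where 19.5% of all genes tested did so. Both contrasts chose the members, and these counts are given as description. The 5 *gas-1* libraries lay above all 10 others in 96 members, against 3.61% of all genes tested, and these values too entered the rule. In 152 members the *gas-1* libraries lay above every wt library, and in 99 they lay above every double mutant library. The rule asks for a rise of at least 1 and a fall of only 0.5, so nothing is read from the difference between these counts.

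As a description, most members kept part of their rise in the double mutant. The rule favors this, since it asks for a rise of at least 1 and a fall of only 0.5. In 127 members (73.0%) the mean in double mutants was still at least 0.5 log2 units above wt, in 46 it lay within 0.5 of wt, and in 1, the zinc transporter gene *zipt-2.3*, it lay at least 0.5 below. The fall amounted to a median of 44.7% of the rise, to under 50% of it in 98 members and to at least 75% in 36. The median of double mutant minus wt was 1.06 over members and 0.14 over all genes tested. With limma at 5% FDR, 119 members passed as higher in double mutants than in wt, where 44.5% of all genes tested passed, and 8 passed as lower, where 31.2% of all genes tested passed. Both strain means entered the rule, so these counts are descriptions as well. After quantile normalization the counts were 79 higher and 17 lower. The means of 87 members then lay at least 0.5 above wt, of 68 within 0.5 and of 19 at least 0.5 below. With a pseudocount of 1 FPKM, 99 lay at least 0.5 above wt and 75 within 0.5. The 8 members lower than wt were *zipt-2.3*, *nlp-24*, *zip-11* and the sequence-named genes *F44E7.5*, *C44B11.6*, *C10C6.7*, *ZC204.14* and *Y17D7B.4*, and leaving out 1 library moved their number between 4 (without wt replicate 2) and 9.

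**Figure D2:**
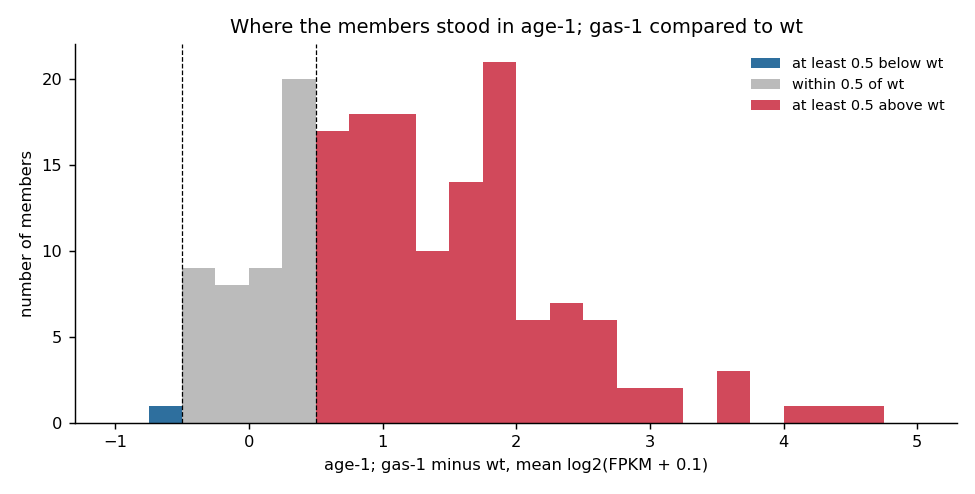
Number of members (y axis) by the difference between double mutants and wt on the log2 scale (x axis). Of 174 members, 127 lay at least 0.5 above wt, 46 within 0.5 of wt and 1 below, with dashed lines at the limits.

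The largest rise belonged to *Y49G5A.1*, a protein-coding gene on chromosome V, 5286343 to 5287373 (WBcel235), which also had the largest fall. *Y49G5A.1* was at 0.311, 0.488, 0.134, 0.532 and 0.496 FPKM in the 5 wt libraries, at 35.8, 34.6, 37.1, 54.6 and 39.4 in *gas-1* mutants and at 1.02, 0.639, 1.26, 0.927 and 0.758 in double mutants. It was nearly silent in wt, abundant in every *gas-1* library and low again, though above every wt library, in double mutants, with a difference of 6.43 log2 units between *gas-1* mutants and wt and of -5.32 between the mutants. *F57G8.7* reached 1.81, 1.14, 1.98, 2.86 and 2.72 FPKM in the *gas-1* libraries, against 0.0101, 0.00654, 0.00413, 0.00535 and 0.00634 in wt and 0.0312, 0.0400, 0.0614, 0.0632 and 0.0251 in double mutants, so that the double mutant lay far below *gas-1* mutants and above every wt library. For *K03D3.2*, the wt libraries were at 0.00697, 0, 0.0255, 0.00551 and 0.0196 FPKM, those of *gas-1* mutants at 1.44, 2.17, 1.504, 2.64 and 2.55 and those of double mutants at 0.225, 0.212, 0.253, 0.260 and 0.236. The 3 strains did not overlap in *K03D3.2*, and double mutants kept a level between the other strains. Both *F57G8.7* and *K03D3.2* passed the filter on low values through *gas-1* mutants alone, so their separation is given as description.

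Another gene that rose from near silence was *F22B3.7* (chromosome IV, 11417581 to 11421796). The FPKM of *F22B3.7* by library were 0.00206, 0.0160, 0, 0.00980 and 0.00193 in wt, 6.52, 6.81, 6.39, 5.49 and 6.098 in *gas-1* and 2.06, 1.84, 2.19, 1.82 and 1.73 in double mutants. Its neighbor *F22B3.5* was listed at 0 in all 5 wt libraries, at 1.76, 2.64, 1.74, 2.27 and 2.28 FPKM in *gas-1* mutants and at 0.748, 0.501, 0.640, 0.692 and 0.628 in double mutants. In both genes the double mutant libraries stood below all *gas-1* libraries and above all wt libraries. As *F22B3.5* passed the filter through *gas-1* mutants alone, its separation is description. The heme-responsive gene *hrg-2*, whose product acts in heme use by the hypodermis, averaged 0.861 ± 0.228 (wt), 22.3 ± 3.06 (*gas-1*) and 12.1 ± 1.68 FPKM (double mutants, SD, n = 5). The FPKM of *hrg-2* by library were 0.942, 0.975, 1.12, 0.535 and 0.733 in wt, 24.8, 17.5, 22.6, 21.5 and 24.9 in *gas-1* and 11.4, 9.98, 13.4, 14.1 and 11.5 in double mutants. No strain overlapped another in *hrg-2*, and its fall of 0.87 log2 units took back 19.2% of its rise of 4.56.

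Other members with a large rise differed in how much of it they kept. *chca-1* was at 6.33, 6.47, 2.98, 6.09 and 4.98 FPKM in the 5 wt libraries, at 177, 172, 171, 159 and 175 in *gas-1* mutants and at 108, 78.1, 111, 103 and 93.5 in double mutants. The rise of *chca-1* was 5.02 log2 units and the fall 0.80, and the 3 strains did not overlap. *B0205.13* averaged 0.443 ± 0.128 (wt), 22.3 ± 1.63 (*gas-1*) and 13.6 ± 2.14 FPKM (double mutants, SD, n = 5) and had the least reversed rise of all members, with 13.3% of it lost. *R08F11.4* reached 30.8, 24.1, 28.3, 27.4 and 23.8 FPKM in the *gas-1* libraries, against 1.004, 1.35, 0.592, 0.753 and 2.79 in wt and 14.9, 11.7, 17.4, 16.4 and 11.2 in double mutants. Here too the strains were separate, with the double mutant in between. The remaining genes among the 12 with the largest rise and at least 2 FPKM in *gas-1* mutants were *C01G10.5* and the pseudogenes WBGene00008306 and WBGene00020873. Of these WBGene00020873 came back to 0.176 to 0.448 FPKM from 3.001 to 4.02, with wt at 0.0145 to 0.225, and the *gas-1* libraries of WBGene00008306, at 2.22 to 7.54 FPKM, overlapped those of the double mutant, at 1.46 to 2.68.

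Some members returned to wt levels or slightly below them in the double mutant. *E01G4.5* was at 1.72, 1.94, 2.85, 2.01 and 2.15 FPKM in the 5 wt libraries, at 9.08, 9.45, 8.43, 9.03 and 9.41 in *gas-1* mutants and at 2.01, 2.14, 2.17, 1.85 and 2.01 in double mutants. This gene is a known target of endogenous small interfering RNAs, and its wt and double mutant libraries overlapped throughout while every *gas-1* library stood above them. The FPKM of *T20D4.3* by library were 0.377, 0.284, 0.0513, 0.343 and 0.288 in wt, 2.83, 2.61, 3.402, 2.46 and 1.89 in *gas-1* and 0.290, 0.189, 0.233, 0.274 and 0.208 in double mutants. The mean of *T20D4.3* in the double mutant was -0.03 log2 units from wt. *C55C3.6* and *B0511.11* came back to -0.11 and 0.08 log2 units from wt, from *gas-1* levels of 5.56 to 7.71 and 25.5 to 35.8 FPKM. *C44B11.6* reached 6.65, 6.26, 5.95, 7.45 and 8.096 FPKM in the *gas-1* libraries, against 1.79, 2.56, 1.34, 2.09 and 1.88 in wt and 1.45, 1.404, 1.66, 1.48 and 1.47 in double mutants. In *C44B11.6* the double mutant libraries lay below all wt libraries but the lowest. *Y37E3.30* averaged 1.18 ± 0.321 (wt), 7.52 ± 0.692 (*gas-1*) and 1.46 ± 0.205 FPKM (double mutants, SD, n = 5). The abundant gene *F44E7.5* averaged 16.7 ± 0.486 (wt), 50.6 ± 12.01 (*gas-1*) and 12.4 ± 0.697 FPKM (double mutants, SD, n = 5), and all its double mutant libraries lay below all its wt libraries.

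**Figure D3:**
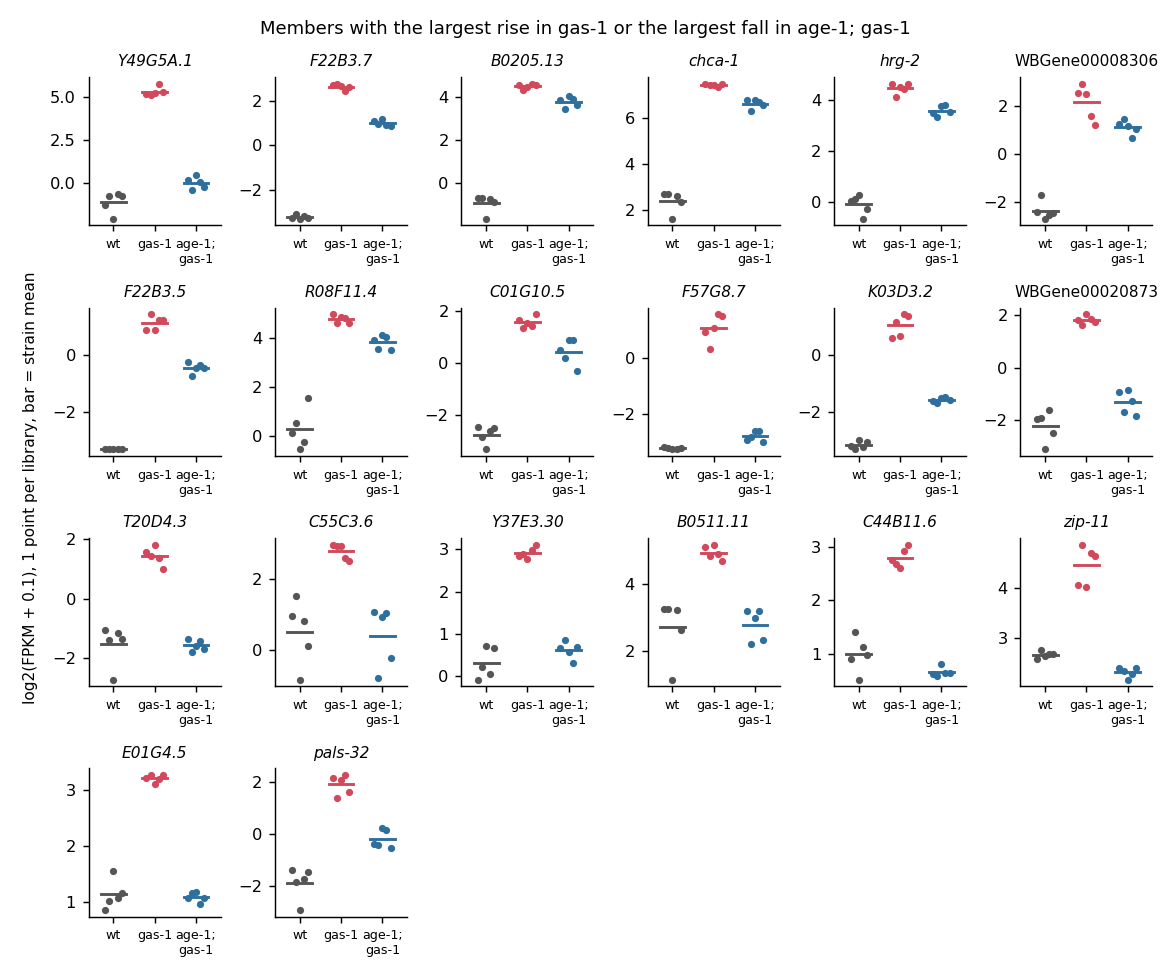
Values of log2(FPKM + 0.1), 1 point per library with the strain mean as a bar, for the 12 members with the largest rise in *gas-1* mutants and the other members among the 12 with the largest fall in double mutants, all with at least 2 FPKM in *gas-1* mutants. *Y49G5A.1* rose from 0.134 to 0.532 FPKM in wt to 34.6 to 54.6 in *gas-1* mutants and was at 0.639 to 1.26 in the double mutant, whereas *B0205.13* and *chca-1* fell by 0.72 and 0.80 log2 units.

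All 3 p38 mitogen-activated protein kinase genes measured were members. They lie head to tail on the plus strand of chromosome IV, *pmk-3* from 8139219 to 8143154, *pmk-2* from 8143500 to 8148648 and *pmk-1* from 8148794 to 8151266, and are known to be transcribed as an operon. *pmk-3* was at 9.395, 8.86, 7.71, 7.86 and 9.82 FPKM in the 5 wt libraries, at 47.3, 56.2, 46.8, 52.7 and 48.6 in *gas-1* mutants and at 15.7, 16.7, 17.2, 15.8 and 15.4 in double mutants. The FPKM of *pmk-2* by library were 4.098, 5.24, 6.33, 4.096 and 5.76 in wt, 27.8, 32.1, 26.5, 29.8 and 28.4 in *gas-1* and 8.77, 10.4, 8.88, 8.99 and 8.68 in double mutants. *pmk-1* reached 28.8, 34.1, 27.6, 31.3 and 33.9 FPKM in the *gas-1* libraries, against 10.5, 10.5, 14.6, 9.92 and 11.5 in wt and 14.6, 17.4, 17.4, 13.6 and 16.2 in double mutants. In each gene every *gas-1* library lay above all 10 others, and in *pmk-3* and *pmk-2* every double mutant library also lay above every wt library. The differences between *gas-1* mutants and wt were 2.52, 2.497 and 1.45 log2 units for *pmk-3*, *pmk-2* and *pmk-1*, and those between the mutants were -1.63, -1.65 and -0.97. The fall was 64.8%, 66.1% and 67.0% of the rise, a like share in the 3 genes. Within strains the SD of these genes was 0.12 to 0.18 log2 units. Without the 4 libraries low in sperm transcripts the differences between the mutants were -1.58, -1.65 and -0.997.

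The gene *islo-1*, directly ahead of *pmk-3* on the same strand, was another member of this stretch. The FPKM of *islo-1* by library were 1.08, 0.945, 0.831, 0.908 and 1.12 in wt, 3.81, 3.696, 4.17, 4.32 and 4.48 in *gas-1* and 1.41, 1.41, 1.697, 1.42 and 1.42 in double mutants. Its rise of 1.97 log2 units and fall of 1.42 lay within the range of the kinase genes. The next genes did not share this course. Upstream on the other strand, *isp-1*, which encodes the iron-sulfur protein of complex III, rose by 0.58 (SE 0.05, limma adjusted p = 2.3e-07) in *gas-1* mutants and differed by -0.06 (SE 0.05, limma adjusted p = 0.43) between the mutants. Downstream on the same strand, *faah-2* rose by 1.45 (SE 0.15, limma adjusted p = 1.5e-06) and then rose further, by 1.18 (SE 0.15, limma adjusted p = 5.3e-05), in double mutants relative to *gas-1* mutants. Of the 10 tested genes within 20 kb that were not members, 5 rose and 2 fell in *gas-1* mutants, shares near the 44% and 24.6% of all genes tested. None fell in double mutants relative to *gas-1* mutants, where 19.5% of all genes tested did so. With so few genes nothing is read from these counts.

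**Figure D4:**
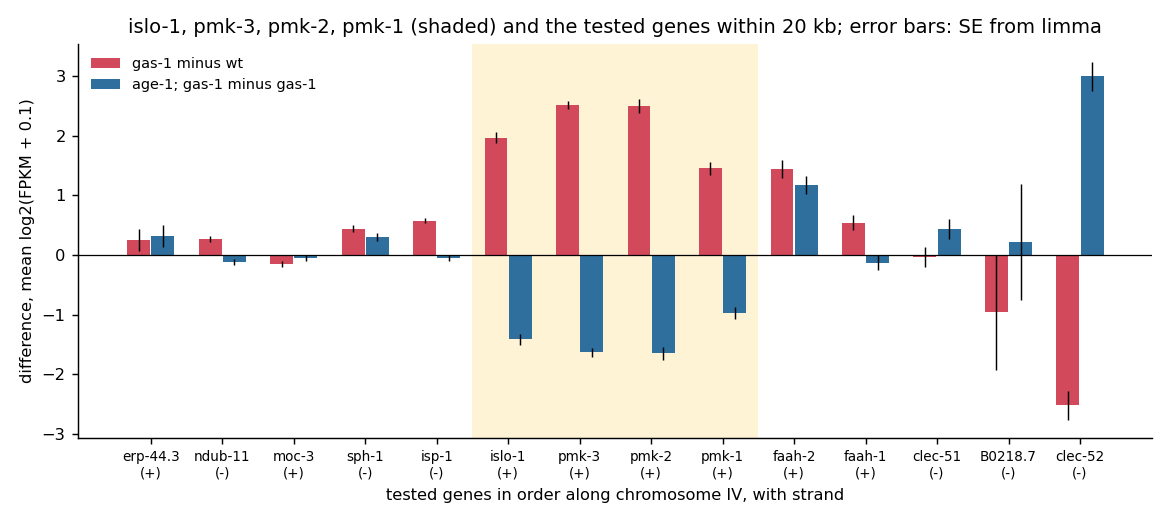
Differences on the log2 scale with SE from limma (y axis) for the tested genes within 20 kb of the p38 kinase genes, in their order along chromosome IV, for *gas-1* mutants against wt and for double mutants against *gas-1* mutants. The 4 shaded members rose by 1.45 to 2.52 and fell by 0.97 to 1.65, while *faah-2* rose in both steps.

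Other parts of the p38 relay, named for their place in it after their values were seen, were not members. *tir-1*, which encodes the adaptor at its head, rose by 2.56 (SE 0.22, limma adjusted p = 2.1e-07) in *gas-1* mutants, and the difference between the mutants was -0.23 (SE 0.22, limma adjusted p = 0.45). The kinases *nsy-1* and *sek-1* rose by 0.31 (SE 0.10, limma adjusted p = 0.012) and 0.45 (SE 0.07, limma adjusted p = 4e-05), and both rose again in the double mutant, by 0.32 (SE 0.10, limma adjusted p = 0.023) and 0.23 (SE 0.07, limma adjusted p = 0.014). The transcription factor gene *atf-7*, downstream of PMK-1, rose by 0.30 (SE 0.06, limma adjusted p = 0.00067). Of 27 tested infection response genes other than *pmk-1*, 20 rose, 4 fell and 3 did not pass in *gas-1* compared to wt, with a median of 0.84 log2 units, where 44% of all genes tested rose and 24.6% fell. In double mutants compared to *gas-1* mutants 12 rose, 4 fell and 11 did not pass (median 0.23), where 13.5% of all genes tested rose and 19.5% fell. Those with the smallest adjusted p in *gas-1* mutants were *fmo-2*, a flavin monooxygenase gene, at 0.0929 ± 0.0548 (wt), 17.5 ± 6.07 (*gas-1*) and 30.6 ± 4.07 FPKM (double mutants, SD, n = 5), the lysozyme gene *lys-2*, at 61.7 ± 15.3 (wt), 655 ± 163 (*gas-1*) and 611 ± 69.2 FPKM (double mutants, SD, n = 5), and the bZIP gene *zip-2*, at 23.2 ± 2.97 (wt), 61.4 ± 6.31 (*gas-1*) and 69.02 ± 6.08 FPKM (double mutants, SD, n = 5). *fmo-2* rose further in the double mutant, by 0.86 (SE 0.23, limma adjusted p = 0.0095), while *lys-2* and *zip-2* did not pass the test between the mutants (adjusted p = 0.82 and 0.19 from limma).

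Among the antimicrobial and stress genes that were members, *nlp-24* encodes a short neuropeptide-like peptide of a kind with antimicrobial activity. *nlp-24* was at 15.9, 23.3, 15.2, 16.7 and 19.9 FPKM in the 5 wt libraries, at 40.1, 33.1, 41.1, 42.2 and 37.7 in *gas-1* mutants and at 15.4, 12.1, 12.7, 16.14 and 12.9 in double mutants. Its *gas-1* libraries stood apart from the rest, and its mean in the double mutant was 0.39 log2 units below wt. The related *nlp-25* spanned 0.430 to 1.82 FPKM across wt, 1.57 to 2.202 across *gas-1* and 0.365 to 1.19 across double mutant libraries, with overlap between wt and both mutants. Of the 34 other tested genes for antimicrobial peptides, 15 rose and 7 fell in *gas-1* mutants (median 0.18), shares close to the 44% and 24.6% of all genes tested, and 15 rose and none fell in double mutants relative to *gas-1* mutants (median 0.38), where 13.5% and 19.5% of all genes tested did so. The defensin-like *abf-2* stood at 0.119 ± 0.0297 (wt), 1.68 ± 0.198 (*gas-1*) and 3.505 ± 0.609 FPKM (double mutants, SD, n = 5), higher in each step.

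*zip-11* encodes a bZIP transcription factor. The FPKM of *zip-11* by library were 5.87, 6.69, 6.16, 6.31 and 6.31 in wt, 16.6, 28.8, 15.95, 25.7 and 24.5 in *gas-1* and 5.18, 4.98, 4.42, 4.81 and 5.17 in double mutants. All *gas-1* libraries lay above all others, all double mutant libraries lay below all wt libraries, and the fall of 2.12 log2 units exceeded the rise of 1.78. *pals-32* and *pals-6* belong to the *pals* family, of which several genes are induced by intracellular pathogens. *pals-32* reached 4.32, 2.56, 4.19, 4.72 and 2.995 FPKM in the *gas-1* libraries, against 0.283, 0.183, 0.0330, 0.203 and 0.265 in wt and 0.674, 0.650, 1.08, 1.03 and 0.587 in double mutants. *pals-6* spanned 0.0392 to 0.205 FPKM across wt, 1.34 to 1.801 across *gas-1* and 0.697 to 1.14 across double mutant libraries. The *gas-1* libraries of both genes were separate from the rest, and the double mutant stayed above wt. Of 15 other tested genes of the intracellular pathogen response, 14 rose in *gas-1* mutants and none fell (median 0.89), where 44% and 24.6% of all genes tested did so. In double mutants relative to *gas-1* mutants 5 rose and none fell (median 0.27), where 13.5% and 19.5% of all genes tested did so. *pals-18* and *pals-23* were examples, with rises of 1.64 (SE 0.10, limma adjusted p = 1e-08) and 2.15 (SE 0.18, limma adjusted p = 2.3e-07) and differences between the mutants of 0.13 (SE 0.10, limma adjusted p = 0.38) and 0.53 (SE 0.18, limma adjusted p = 0.038). Another gene, *B0507.6*, rose by 2.42 (SE 0.14, limma adjusted p = 3.8e-09) and differed by -0.34 (SE 0.14, limma adjusted p = 0.072) between the mutants.

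Cuticle collagens were the largest group of members with known roles. The genes *bli-1*, *bli-2*, *bli-6*, *dpy-4*, *dpy-5*, *dpy-8*, *dpy-13*, *rol-1*, *rol-6*, *rol-8*, *sqt-1* and *sqt-2* are named after the blistered, dumpy, roller and squat body shapes of their mutants. Their median difference between *gas-1* mutants and wt was 2.97 log2 units (2.12 to 3.32), and between the mutants it was -1.06 (-1.402 to -0.90). The double mutant mean stayed at least 0.5 above wt in all 12, and the fall was a median of 35.2% of the rise. *dpy-13* was at 60.6, 56.9, 3.49, 40.5 and 40.1 FPKM in the 5 wt libraries, at 332, 97.9, 357, 365 and 226 in *gas-1* mutants and at 204.9, 35.05, 205.3, 236 and 66.6 in double mutants. The FPKM of *sqt-1* by library were 1.49, 2.72, 0.0127, 1.38 and 1.19 in wt, 12.5, 3.71, 14.8, 15.1 and 8.75 in *gas-1* and 6.14, 1.12, 6.74, 7.7995 and 2.78 in double mutants. *bli-6* reached 40.7, 11.8, 43.2, 45.9 and 30.96 FPKM in the *gas-1* libraries, against 10.2, 12.3, 1.97, 10.02 and 6.99 in wt and 19.5, 3.54, 21.5, 24.7 and 5.999 in double mutants. In every collagen the strains overlapped, since *gas-1* replicate 2 lay among the double mutant libraries. *rol-6*, the gene of the common roller marker, spanned 0 to 0.701 FPKM across wt, 0.962 to 5.31 across *gas-1* and 0.469 to 3.05 across double mutant libraries. *dpy-8*, whose product builds the furrows of the cuticle, spanned 0.0624 to 0.296 FPKM across wt, 0.868 to 2.65 across *gas-1* and 0.530 to 1.32 across double mutant libraries.

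The spread within strains had one form in all 12 collagens. The lowest wt library was replicate 3, the lowest *gas-1* library was replicate 2 and the lowest pair of double mutant libraries was replicates 2 and 5, which are the 4 libraries low in sperm transcripts. In *dpy-13* these libraries held 3.49, 97.9, 35.05 and 66.6 FPKM. Over the 12 genes the median deviation from the strain mean was -2.22 log2 units for wt replicate 3, -1.39 for *gas-1* replicate 2, and -1.66 and -0.73 for replicates 2 and 5 of double mutants. The double mutant thus holds 2 of its 5 libraries at low values, against 1 of 5 in the other strains. Without the 4 libraries the median rise was 2.77 and the median fall 0.68, with falls from 0.44 to 0.94, and 9 of the 12 collagens still met both limits. The 3 that did not were *dpy-4*, *dpy-5* and *rol-1*, with falls of 0.46, 0.48 and 0.44. Of the 12 collagens, *dpy-8* alone passed limma at 5% FDR between the mutants and 11 did not, a contrast that the rule used. Over 4 hypodermal marker genes the median of log2(FPKM + 0.1) was -1.01 to -0.12 in wt libraries, 1.31 to 2.84 for *gas-1* and 1.78 to 2.44 in double mutants, and 2, 4 and 4 of them reached 1 FPKM in at least 1 library. Their summed level, most of it from *lin-26*, was 67.3 to 78.1 FPKM in wt, 74.6 to 80.6 for *gas-1* and 70.6 to 90.2 in double mutants. Of these markers *dpy-7*, *rol-6* and *bli-1* are themselves cuticle collagens, the latter pair members. The fourth, the hypodermal transcription factor gene *lin-26*, averaged 68.1 ± 3.86 (wt), 63.5 ± 2.402 (*gas-1*) and 64.002 ± 4.15 FPKM (double mutants, SD, n = 5). The part of sperm, embryos, stage or hypodermis in the collagen values was not tested.

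**Figure D5:**
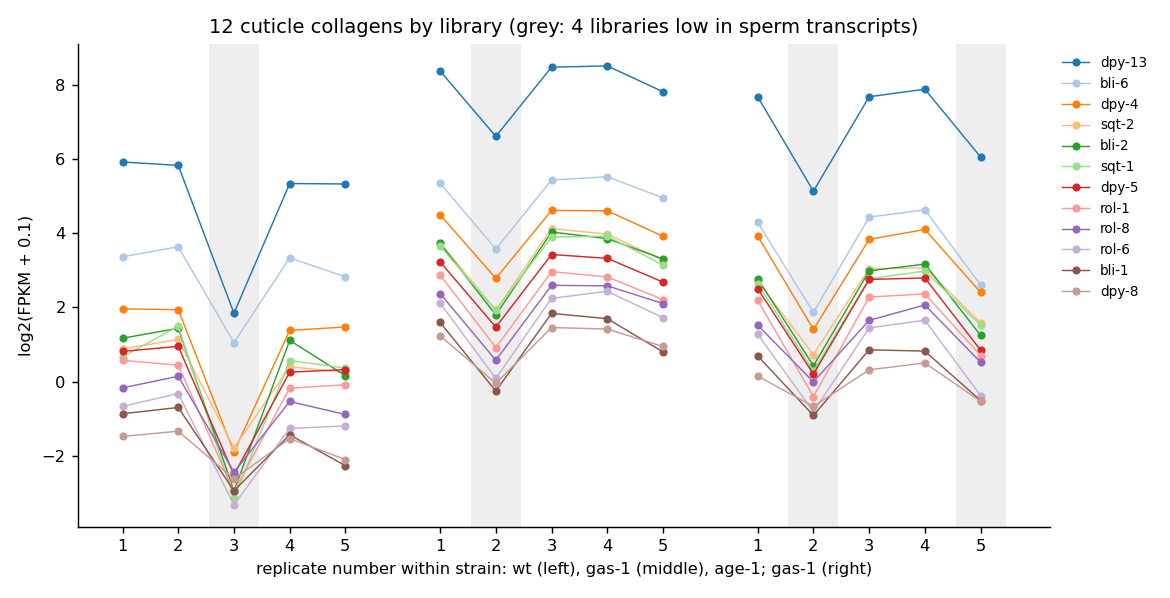
Values of log2(FPKM + 0.1) of the 12 cuticle collagens (y axis) in each library by replicate number (x axis), with wt on the left, *gas-1* mutants in the middle and double mutants on the right. Grey bands mark the 4 libraries low in sperm transcripts, where all 12 genes had the lowest values of their strain.

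Some cuticle collagens met the limit on the rise and not that on the fall. In a list of 21 cuticle collagens with such phenotype names, drawn up after the data were seen, 19 were tested and 7 were not members. These were *dpy-2*, *dpy-3*, *dpy-7*, *dpy-10*, *dpy-14*, *dpy-17* and *sqt-3*. All 7 rose in *gas-1* mutants, with a median of 2.34 log2 units, and none passed the test between the mutants, as 11 of the 12 members did not, with a median of 0.60 and all 7 differences above 0. They are outside the rule by its limit on the fall, and their difference from the 12 members was not tested. *dpy-7* averaged 1.31 ± 1.02 (wt), 8.74 ± 3.36 (*gas-1*) and 13.1 ± 5.24 FPKM (double mutants, SD, n = 5), and *sqt-3* averaged 12.8 ± 6.31 (wt), 61.4 ± 16.6 (*gas-1*) and 97.1 ± 32.8 FPKM (double mutants, SD, n = 5). *dpy-2*, *dpy-3*, *dpy-7* and *dpy-10* encode collagens of the cuticle furrows, as *dpy-8* does. Of the families that the rule left out, the *col* collagens were by far the largest source of genes past the limits, with 46 of 89 tested. The medians of these 46 alone were 2.41 log2 units for *gas-1* minus wt and -1.02 for double minus *gas-1*. For the 12 collagens described here they were 2.97 and -1.06. Both sets passed the same limits, so nothing is read from their likeness. The others were 5 of 73 *clec* genes, 4 of 53 *ugt* genes, 3 of 51 *cyp* genes, 3 of 143 *fbx* genes, 2 of 29 *gst* genes, 1 of 40 *ttr* genes and 1 of 136 *nhr* genes.

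Hedgehog-related proteins of nematodes are secreted by the hypodermis and related cells, and many are made in the molting cycle. *grl-16* was at 5.57, 6.05, 0.358, 4.46 and 3.97 FPKM in the 5 wt libraries, at 31.1, 9.22, 32.6, 30.8 and 18.6 in *gas-1* mutants and at 15.8, 4.76, 18.1, 19.6 and 6.86 in double mutants. The FPKM of *grl-5* by library were 0.602, 0.742, 0.0761, 0.525 and 0.525 in wt, 7.67, 2.93, 8.3003, 7.19 and 5.52 in *gas-1* and 3.25, 1.999, 4.65, 4.29 and 2.44 in double mutants. The gene *wrt-8* spanned 0 to 0.333 FPKM across wt, 0.134 to 2.13 across *gas-1* and 0.118 to 1.31 across double mutant libraries. All 3 had their lowest values in the 4 libraries named above, and *wrt-8* fell short of the limit on the fall without them (-0.43), while *grl-16* and *grl-5* kept falls of 0.63 and 0.80. Of the 34 other tested hedgehog-related and patched-related genes, 22 rose and 7 fell in *gas-1* mutants (median 0.54), where 44% and 24.6% of all genes tested did so. In double mutants relative to *gas-1* mutants 6 rose and 2 fell (median 0.21), where 13.5% and 19.5% of all genes tested did so. The 7 that fell and the 6 that rose are shares near those of all genes. *ptr-4*, a patched-related gene needed for molting, rose by 2.66 (SE 0.19, limma adjusted p = 4.6e-08) and *grl-14* by 1.97 (SE 0.17, limma adjusted p = 2.3e-07), whereas *grd-3* fell by 1.55 (SE 0.14, limma adjusted p = 3.4e-07) and was higher in double than in *gas-1* mutants by 1.34 (SE 0.14, limma adjusted p = 7.2e-06).

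Secreted enzymes and matrix genes of the cuticle and other tissues were also selected. The astacin protease genes *nas-15* and *nas-30*, the ADAMTS protease gene *adt-3*, the carboxypeptidase gene *suro-1*, which acts in shaping the cuticle, and the chondroitin proteoglycan gene *cpg-22* were members. Their rises ran from 1.196 to 2.56 log2 units and their falls from 0.60 to 0.83, and none of the 5 passed limma at 5% FDR between the mutants. The falls of *nas-30* and *cpg-22* without the 4 libraries were 0.41 and 0.34, short of the limit. *nas-15* was at 1.65, 1.53, 0.506, 1.31 and 0.528 FPKM in the 5 wt libraries, at 7.06, 3.06, 7.26, 9.13 and 6.96 in *gas-1* mutants and at 4.16, 2.35, 6.09, 4.89 and 2.87 in double mutants. The *gas-1* libraries overlapped other strains in all 5 genes, and replicate 2 was the lowest *gas-1* library in each. A set of 10 members belongs to glutamine-rich or disordered protein families. *abu-8*, *abu-10*, *abu-11*, *pqn-54*, *pqn-63* and *pqn-74* have repeats rich in glutamine and asparagine and *idpc-1*, *idpc-4*, *idpc-6* and *idpp-12* are named for intrinsic disorder, and proteins of these kinds are known from the lining of the pharynx, which is shed at each molt. Their median rise was 1.65 and their median fall 0.74, and *pqn-54* alone of the 10 passed between the mutants. Without the 4 libraries *pqn-63* and *pqn-74* were lower by 0.47 and 0.46, short of the limit. *pqn-74* reached 43.8, 26.1, 40.002, 50.2 and 43.04 FPKM in the *gas-1* libraries, against 15.5, 18.1, 5.92, 16.8 and 10.6 in wt and 28.8, 20.6, 32.7, 34.9 and 21.3 in double mutants. The FPKM of *abu-8* by library were 3.62, 3.46, 0.322, 2.74 and 1.501 in wt, 10.8, 2.29, 9.46, 10.3 and 8.29 in *gas-1* and 3.79, 3.43, 6.01, 5.15 and 3.21 in double mutants. All 3 *idpc* genes tested were members, as were 3 of 6 *abu* genes, 3 of 37 *pqn* genes and 1 of 7 *idpp* genes.

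Across all members, the same 3 marks of the within-strain pattern (wt replicate 3 lowest in wt, *gas-1* replicate 2 lowest in *gas-1*, replicates 2 and 5 the lowest pair in double mutants) held together in 76 of 174 genes, or 43.7%, against 12.9% of all genes tested. Apart from the 12 collagens they held in 64 of 162. Each mark alone held in 121, 94 and 103 members (69.54%, 54.02% and 59.2%), against 36.82%, 29.02% and 25.78% of all genes tested. Low values in wt replicate 3, or in replicates 2 and 5 of double mutants, lower strain means that the rule used. The rule thus favors genes with these marks, while a low *gas-1* replicate 2 works against selection. How much of the excess over all genes comes from the rule was not tested. The within-strain SD had a median of 0.41 log2 units over members and of 0.21 over 5388 other tested genes of like mean level. It was 1.13 in the collagens, 1.103 in the hedgehog-related genes and 0.87 in the glutamine-rich and disordered group, but 0.17 in the p38 kinases, 0.24 in the nervous system group and 0.27 in the group of transport and metabolism. Without the 4 libraries 145 of the 174 members still met both limits on the strain means, 25 fell short on the fall and 7 on the rise. In every member the double mutant remained below *gas-1* mutants, but the fall chose the members, so nothing is read from its sign. The members' median rise was then 1.97 and their median fall 0.77.

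A further 8 members act in neurons, glia or as channels, and in 7 of them the *gas-1* libraries lay above all others, as in 96 of all 174 members and 3.61% of all genes tested. These values entered the rule. *dyf-3*, which is needed to build sensory cilia, had 3 separate strains. *dyf-3* was at 1.29, 1.21, 1.29, 1.13 and 1.31 FPKM in the 5 wt libraries, at 17.5, 12.7, 18.9, 17.5 and 15.5 in *gas-1* mutants and at 8.299, 7.88, 6.302, 7.04 and 7.78 in double mutants. *acd-1*, an acid-sensitive channel gene of glia, spanned 0.0918 to 0.361 FPKM across wt, 3.79 to 6.39 across *gas-1* and 2.57 to 3.43 across double mutant libraries. The secreted synapse organizer gene *madd-4* averaged 2.66 ± 0.673 (wt), 8.69 ± 0.621 (*gas-1*) and 5.85 ± 0.787 FPKM (double mutants, SD, n = 5), and without the 4 libraries low in sperm transcripts its fall was 0.49, just short of the limit. The receptor guanylyl cyclase gene *gcy-8*, active in thermosensory neurons, averaged 0.630 ± 0.165 (wt), 1.82 ± 0.355 (*gas-1*) and 1.06 ± 0.334 FPKM (double mutants, SD, n = 5). Another guanylyl cyclase gene, *gcy-29*, averaged 0.381 ± 0.0690 (wt), 1.35 ± 0.149 (*gas-1*) and 0.516 ± 0.0679 FPKM (double mutants, SD, n = 5). Both are cell surface receptors with low levels in whole animals. The acetylcholine receptor subunit gene *acr-12* spanned 0.372 to 0.709 FPKM across wt, 1.67 to 2.14 across *gas-1* and 0.919 to 1.31 across double mutant libraries. The bestrophin channel gene *best-21* had the smallest rise of the group, 1.03 log2 units. The ligand-gated channel gene *lgc-21* was the only one of the 8 whose *gas-1* libraries overlapped those of another strain, with 0.715 to 2.72 FPKM in *gas-1* and 0.654 to 1.73 in double mutants, and without the 4 libraries its fall was 0.36. The levels of 4 neuronal marker genes summed to 78.9 to 84.1 FPKM in wt, 100.5 to 107.1 for *gas-1* and 103.7 to 113.9 in double mutants, higher in both mutants than in wt. Their part in these results was not tested.

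Among genes of transport, metabolism and protein repair, *scav-5* reached 67.3, 66.7, 68.3, 61.5 and 85.9 FPKM in the *gas-1* libraries, against 25.2, 25.2, 14.01, 23.4 and 33.4 in wt and 51.8, 32.7, 56.8, 51.4 and 30.9 in double mutants. It encodes a scavenger receptor of the CD36 kind, and without the 4 libraries its fall was 0.40. *msra-1*, a methionine sulfoxide reductase gene, spanned 43.2 to 105 FPKM across wt, 143 to 179.5 across *gas-1* and 44.4 to 139.6 across double mutant libraries. Its double mutant libraries fell into a low pair, replicates 2 and 5, and a high trio at 128 to 139.6 FPKM, and without the 4 libraries its fall was 0.26. *zipt-2.3*, a zinc transporter gene, had a mean below wt in the double mutant, as *zip-11*, *nlp-24* and *F44E7.5* had. The FPKM of *zipt-2.3* by library were 0.546, 1.38, 1.06, 1.11 and 0.816 in wt, 2.24, 3.18, 1.92, 2.64 and 1.95 in *gas-1* and 0.544, 0.390, 0.610, 0.565 and 0.524 in double mutants. All but 1 of its wt libraries lay above all its double mutant libraries. Of the 17 other tested genes of the metal and cadmium response, 13 rose and none fell in *gas-1* mutants (median 0.73), where 44% and 24.6% of all genes tested did so. In double mutants relative to *gas-1* mutants 5 rose and 2 fell, where 13.5% and 19.5% of all genes tested did so. *cdr-4* and *cdr-2* rose by 3.797 (SE 0.09, limma adjusted p = 6.1e-13) and 4.29 (SE 0.11, limma adjusted p = 1.2e-12) and did not pass between the mutants (adjusted p = 0.23 and 0.14 from limma), whereas the phytochelatin synthase gene *pcs-1* fell by 0.41 (SE 0.06, limma adjusted p = 0.0001).

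The arginine kinase gene *argk-1* met the rule with 1 library far from the rest in each of 2 strains. *argk-1* was at 0.0832, 0.0946, 0.0299, 0.0813 and 10.2 FPKM in the 5 wt libraries, at 2.02, 15.6, 1.82, 1.88 and 2.65 in *gas-1* mutants and at 1.59, 2.22, 2.05, 1.49 and 2.84 in double mutants. Apart from wt replicate 5 and *gas-1* replicate 2, wt libraries were under 0.1 FPKM and both mutants at 1.49 to 2.84, so the fall rests on *gas-1* replicate 2, and without the 4 libraries it was 0.27. The short-chain dehydrogenase gene *dhs-8* averaged 0.474 ± 0.104 (wt), 2.37 ± 0.518 (*gas-1*) and 0.746 ± 0.113 FPKM (double mutants, SD, n = 5). The beta-lactamase domain gene *lact-1* rose by 1.82 log2 units, the fucosyltransferase gene *fut-4* by 1.12, the small heat shock protein gene *hsp-17* by 1.204 and the carboxylesterase gene *cest-10* by 1.02, and their falls ran from 0.60 to 0.77. The falls of *fut-4* and *cest-10* without the 4 libraries were 0.46 and 0.48 and the rise of *cest-10* was 0.95, outside the limits. Except in *cest-10*, the *gas-1* libraries of these genes, *dhs-8* included, lay above all others. Members with names but no role given here were *tag-297*, *dao-4*, *drd-50* and *pes-8*, with rises of 2.96, 2.56, 2.48 and 1.78 and falls of 0.53, 0.87, 0.86 and 0.57. The fall of *tag-297* was 0.42 without the 4 libraries.

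The members were spread over the genome but not evenly. In WBcel235, to which 173 of the 174 identifiers matched, chromosome III held 8 of 1907 tested genes (0.42%) and chromosome V held 46 of 2108 (2.18%). Chromosome IV held 42 of 1942, II held 32 of 2007, X held 23 of 1626 and I held 22 of 1969. Of the members 167 are annotated as protein-coding genes, 4 as pseudogenes, 1 as a long noncoding RNA and 1 as a microRNA gene. Members within 20 kb of each other formed 14 groups with 37 members (21.3%), and in 12 of these groups they lay on 1 strand. How often other tested genes lie so was not computed, so no clustering of the members is read from these counts. Besides the p38 kinase stretch, groups of at least 3 members were *nspe-6*, *nspe-2*, *nspe-1* and *Y38E10A.14* on chromosome II, *idpp-12*, *W08E12.2* and *zip-11* on IV, and *T20D4.11*, *T20D4.10*, *T20D4.7* and *T20D4.3*, then *grl-5*, *Y47D7A.15* and *Y47D7A.13*, then *pqn-63*, *idpc-6* and *idpc-4* on V. Of the members 32 overlap another measured gene, among them *bli-1*, *bli-2*, *dpy-4*, *dpy-8*, *nlp-24*, *pals-32*, *madd-4*, *suro-1*, *cpg-22*, *idpc-1*, *scav-5*, *msra-1*, *hsp-17*, *zipt-2.3* and *B0511.11*. The share of all genes tested with such an overlap was not computed. Whether fragments were assigned by strand is not given in the sources used here, and the levels of the overlapping members are uncertain to that extent.

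Within these groups the members did not always share a course. Next to *zip-11*, *idpp-12* and *W08E12.2* were raised more, by 3.09 and 3.07 log2 units, and were lowest in the 4 libraries low in sperm transcripts, a pattern *zip-11* did not have. In the *T20D4* group the falls were 0.87, 0.72, 0.81 and 3.000 in their order along the chromosome, and the last gene alone came back to wt. The nematode-specific peptide genes *nspe-6*, *nspe-2* and *nspe-1* lie side by side on the minus strand. *nspe-1* was at 2.34, 8.58, 3.54, 5.88 and 6.91 FPKM in the 5 wt libraries, at 17.96, 16.7, 18.4, 20.1 and 20.6 in *gas-1* mutants and at 11.4, 13.2, 11.3, 12.2 and 13.99 in double mutants. *nspe-2* spanned 0.242 to 0.824 FPKM across wt, 3.59 to 5.405 across *gas-1* and 2.34 to 3.65 across double mutant libraries, and *nspe-6* spanned 0 to 0.0397 FPKM across wt, 1.28 to 2.18 across *gas-1* and 0.543 to 1.25 across double mutant libraries. Of the 3 genes, *nspe-6* alone passed limma at 5% FDR between the mutants. Their neighbor *nspe-7* passed in neither step, with differences of 0.40 (SE 0.35, limma adjusted p = 0.33) and -0.52 (SE 0.35, limma adjusted p = 0.28). *Y47D7A.13* reached 152, 40.99, 162, 149.8 and 87.1 FPKM in the *gas-1* libraries, against 19.4, 26.1, 2.78, 17.5 and 12.5 in wt and 57.4, 26.9, 68.3, 85.6 and 31.99 in double mutants. This gene, beside *grl-5*, was the most abundant member without a gene name and had its lowest values in the same 4 libraries as the collagens.

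At the limits of the rule, members just inside differed little from genes just outside. *C15F1.2* and *C52G5.2* had rises of 1.003 and 1.004 log2 units (that of *C52G5.2* was 0.92 without the 4 libraries low in sperm transcripts), against 0.997 and 0.981 in *lido-10* and *ZK6.6*. *B0034.1* and *C40H1.8* had falls of 0.505 and 0.507 (differences of -0.42 and -0.497 without the 4 libraries), against 0.496 and 0.493 in *C06G1.1* and *F33D4.6*. Of 1215 genes outside the left-out families with a rise of at least 1, the members are 14.3%. Counts of single genes near a limit thus depend on small differences. Whichever of the 15 libraries was left out, 113 of the 174 members met the rule. Part of this loss comes from the filter on low values, which 155 to 157 members passed when a *gas-1* library was left out.

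The other lists held no member, though the small heat shock protein gene *hsp-17*, a member, was not in the heat shock list. Their counts are to be read against all genes tested, of which 44% rose and 24.6% fell in *gas-1* compared to wt and 13.5% rose and 19.5% fell between the mutants, and several shares lay near these. In *gas-1* compared to wt, 7 of 13 genes of the mitochondrial unfolded protein response rose and 2 fell, 3 of 11 heat shock genes rose and 6 fell, and 12 of 13 genes of the HIF-1 and sulfide response rose and none fell. In double mutants compared to *gas-1* mutants the same lists had 2 genes rising and 7 falling, 2 rising and 4 falling, and 2 rising and 1 falling. *sqrd-1*, the sulfide quinone oxidoreductase gene, rose by 2.08 (SE 0.10, limma adjusted p = 8.6e-10) and differed by 0.03 (SE 0.10, limma adjusted p = 0.84) between the mutants. Of fatty acid oxidation genes, 26 of 41 rose and 4 fell with *gas-1* alone, and 8 rose and 4 fell between the mutants. Propionate breakdown genes numbered 6 risen and 3 fallen of 13, then 9 risen and none fallen. For the methionine cycle and phosphatidylcholine synthesis these counts were 9 and 4 of 23, then 2 and 4. For osmotic and glycerol genes they were 6 and 2 of 13, then 4 and 1. Insulin-like peptide genes gave 12 risen and 2 fallen of 16, then 6 and 1, and genes of insulin/IGF signaling gave 5 and 10 of 21, then 4 and 3. Counts of rising and falling genes depend on the scaling of the libraries, since median-of-ratios scaling moved the median of all genes from 0.14 to -0.10 in *gas-1* compared to wt and from 0.14 to -0.14 in double mutants compared to wt. The rule asked for a rise of at least 1, so nothing is read from the size of the members' rise beside that shift. Of the 174 members, 153 met the rule after median-of-ratios scaling and 135 after quantile normalization.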

How the data were processed

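RNA of whole animals was made into mRNA libraries for 5 biological replicates of each of 3 strains. The authors deposited 1 table of FPKM per library, with 1 value per gene. Per the labels, CASAVA (v1.8.2), FastQC (v0.10.1), STAR (v2.4.0h), Cufflinks (v2.1.1) and Cuffdiff were used, with no role stated there. Neither their genome build nor any use of strand in counting is given in the sources used here. Gene positions were taken from WBcel235 by gene identifier. FPKM are not counts, so no count test was run, and read depth and its precision are not known.

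Here, values were transformed to log2(FPKM + 0.1), which understates changes of low genes. Genes that reached 1 FPKM in 5 or more of the 15 libraries were fitted in one limma model (limma 3.58.1, R 4.3.3) of the 3 strains with a mean-variance trend, tested on simulated data first, and p-values were adjusted by Benjamini-Hochberg within each comparison (5% FDR). Tables and plots were made with Python 3.11.15, pandas 2.3.3, numpy 2.4.6 and matplotlib 3.10.9. The members, gene lists and alternatives were chosen with earlier results of these data known. Named were the 12 members with the largest rise and the 12 with the largest fall among those averaging at least 2 FPKM in *gas-1* mutants, the 8 most abundant, members in a pathway list or with a gene name of known role, the genes nearest the limits, and up to 3 other genes per list with the smallest adjusted p in *gas-1* compared to wt. Alternatives changed the pseudocount, filter, scaling, limma options or libraries. Protein and promoter sequences were not analysed here.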

Additional observations from a re-analysis of the deposited data

Results flagged for a closer look

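In 29 of 261 groups of 5 libraries of a named gene (11.1%), the library at one end stood far from the other 4 by Dixon's criterion. Chance alone gives about 1 in 20 such groups, and the genes are not independent of each other.

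Of these, 12 were a low wt replicate 3. For cuticle collagens this library held 0.0127 FPKM of *sqt-1*, 0.168 of *dpy-4*, 3.49 of *dpy-13*, 0.0755 of *dpy-5* and 0.0286 of *rol-1*, where the other wt libraries of *dpy-13* held 40.1 to 60.6. For the hedgehog-related genes it held 0.0761 FPKM of *grl-5* and 0.358 of *grl-16*. It also held 0.131 FPKM of *abu-10*, 0.202 of *nas-30*, 0.222 of *B0205.13*, 0.0330 of *pals-32* and 0.0513 of *T20D4.3*.

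A low *gas-1* replicate 2 accounted for 11 more. Its levels were 2.29 FPKM for *abu-8* (8.29 to 10.8 in the other *gas-1* libraries), 0.729 for *abu-10*, 1.09 for *abu-11*, 3.55 for *pqn-54*, 1.63 for *idpc-1* and 1.57 for *idpc-4*. In the same library *rol-8* was at 1.39 FPKM, *nas-15* at 3.06, *wrt-8* at 0.134, *best-21* at 14.5 and *C52G5.2* at 11.05. Both libraries are among the 4 low in sperm transcripts, and the part of that in these values was not tested.

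The other 6 were high. *argk-1* was at 10.2 FPKM in wt replicate 5 (0.0299 to 0.0946 in the rest) and at 15.6 in *gas-1* replicate 2 (1.82 to 2.65 in the rest). *Y49G5A.1* was at 54.6 FPKM in *gas-1* replicate 4, the pseudogene WBGene00008306 at 0.205 in wt replicate 2, *pmk-2* at 10.4 in double mutant replicate 2 and *islo-1* at 1.70 in double mutant replicate 3. In *pmk-2* and *islo-1* these libraries remained below every *gas-1* library.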

How the results depend on the processing

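With a pseudocount of 1 FPKM in place of 0.1, 109 genes met the rule in place of 174, the median of double mutant minus wt over members was 0.59 in place of 1.06, 75 members lay within 0.5 of wt in place of 46, 0 lay below in place of 1, and 5 passed as lower in place of 8. A filter at 5 FPKM tested only 68 members, of which 45 lay above wt, 23 within 0.5 and 0 below, and 43 passed as higher in place of 119. Without a filter 300 genes met the rule. Quantile normalization gave a median of 0.51, with 19 members at least 0.5 below wt, 79 higher and 17 lower by limma, and it turned the sign of double mutant minus wt in *dhs-8* (-0.074), *islo-1* (-0.068), *gcy-29* (-0.27) and *fut-4* (-0.11). Members at least 0.5 below wt numbered 9 after median-of-ratios scaling, 7 after upper-quartile scaling and 2 with array weights. The cause of these shifts was not tested.

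Leaving out 1 library at a time, 148 to 190 genes met the rule, the median was 0.87 to 1.15, 114 to 132 members lay above wt, 37 to 58 within 0.5 and 1 to 2 below (2 without wt replicate 3), 99 to 124 passed as higher and 4 to 9 as lower (4 without wt replicate 2, 5 without double mutant replicate 4 or 5). Without a *gas-1* library the filter itself, which asks for 5 libraries, leaves 155 to 157 members tested. Without the 4 libraries low in sperm transcripts the filter left 151 members tested, and 148 genes met the rule, 123 of them members. The count of 145 members given above for these libraries applied the limits on rise and fall without the filter.

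Of 291 listed genes that were not members, those lower in *gas-1* compared to wt numbered 51, and 77 after median-of-ratios scaling. Those lower in double mutants relative to *gas-1* mutants numbered 33, and 62 with array weights. Those lower in double mutants relative to wt numbered 52, and 84 after median-of-ratios scaling. No named member changed the sign of *gas-1* minus wt or of double minus *gas-1* in any alternative run. Both differences chose the members, so nothing is read from their signs. Of the named members' values in these runs, 136 for *gas-1* minus wt moved by at least the gene's within-strain SD and 1862 did not. For double minus *gas-1* these numbers were 38 and 1960. Libraries with the same replicate number deviated together in only 10 of 15 pairs (correlation over 0.1, range -0.76 to 0.79), so the numbers were not taken as pairs. With the replicate block 114 members passed as higher and 7 as lower than wt.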
